A study of Rattus norvegicus with 12 samples.

Results

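Hepatic progenitor cells (HPCs), immature rat liver cells that can form hepatocytes and bile duct cells, were compared between 2 knockout labels after the same treatment with tumour necrosis factor alpha (TNFα). The comparison set the 2 libraries labelled Tnfrsf1α-/-+TNFα against the 2 libraries labelled Tnfrsf1β-/-+TNFα, which are 4 of the 12 RNA-seq libraries of the series. All 4 came from HPCs of gestation day 13.5 that had been given TNFα for 1 hour. The other 8 libraries are pairs of untreated Tnfrsf1α-/-, untreated Tnfrsf1β-/-, TNFα-treated wild-type and untreated wild-type HPCs of the same age. Of the 22384 lines of the deposited table that carry a gene symbol, the 11860 with a mean of at least 1 FPKM (a read count scaled by gene length and library size) over the 12 libraries were tested. The labels do not tell whether paired libraries are independent cultures, how many animals were pooled, or whether a knockout is 1 clone. The p-values therefore cover library-to-library spread, which may be technical.

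TNFα signals through a pair of receptors. TNFR1, encoded by Tnfrsf1a, carries a death domain and can assemble either an NF-kB-activating complex around TRADD and RIPK1 or a cell-death complex around FADD and caspases. TNFR2, encoded by Tnfrsf1b, has no death domain and recruits TRAF adaptors directly. In liver cells TNFα is known for NF-kB target induction, for priming proliferation and for cell death when NF-kB is blocked. YAP and TAZ are co-activators that work through TEAD factors and are restrained by the Hippo kinases, and hnRNPK is a poly(C)-binding RNA-binding protein. The series title sets the work around TNFR2, hnRNPK and YAP.

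Levels below are log2(FPKM + 1), and a difference is the mean of the treated libraries labelled Tnfrsf1α-/- minus the mean of those labelled Tnfrsf1β-/- on that scale, with its standard error (SE). The labels are taken to mean Tnfrsf1a and Tnfrsf1b, and the targeted genes did not follow them. Tnfrsf1a was at 5.65 and 5.95 in the treated libraries labelled Tnfrsf1α-/-, against 4.85 and 4.71 in those labelled Tnfrsf1β-/-. The gene named by the knockout was therefore not lower in its own libraries, although a deletion that leaves a transcript would not show here. Tnfrsf1b was listed at 0 and 4.09 in the libraries labelled Tnfrsf1α-/-, against 0 and 0 in those labelled Tnfrsf1β-/-, and it was also listed at 0 in both untreated wild-type libraries, so its absence does not separate the labels. Every direction below is therefore between library labels, and the shorthand α-labelled and β-labelled stands for the treated libraries of the 2 labels.

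The 2 α-labelled libraries differed from each other far more than the 2 β-labelled ones. The median over genes of the SD between replicates was 0.481 in the α-labelled pair and 0.228 in the β-labelled pair, and Spearman's rho between the replicates over the tested genes was 0.782 and 0.974. Of the tested genes 1231 lay more than 2 apart in the α-labelled pair and 43 in the β-labelled pair. Replicate 1 of the β-labelled pair lay closer to untreated wild type than the wild-type replicates lay to each other. Spearman's rho was 0.983 between that library and replicate 1 of untreated wild type, with 53 genes more than 2 apart, and 0.961 between the wild-type replicates, with 127. Against the 4 untreated knockout libraries the rho of that β-labelled library was 0.772 to 0.792, and that of the other β-labelled library was 0.721 to 0.744, against 0.953 to 0.963 with untreated wild type. These correlations are descriptions over genes, which are not independent replicates. Ribosomal protein genes held 6.99% and 10.7% of summed FPKM in the α-labelled libraries, against 21.1% and 23.7% in the β-labelled ones. Read depth is unknown because only FPKM values were deposited, and an FPKM is a share of its library. In such bulk values, fewer cells of a type and less RNA per cell cannot be told apart.

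With TNFα the α-labelled libraries carried far higher levels of a group of genes than the β-labelled libraries, among them YAP target genes (Ankrd1, Areg, Axl), mitotic genes (Ccnb1, Cdc20, Foxm1), sterol synthesis genes (Fdps, Mvd), Junb, Thbs1 and B2m. A smaller group, with Sox17, Dmd, Tap2 and Tbxa2r, was lower in both α-labelled libraries. Between these lay a broad, shallow shift: the median difference over all tested genes was 0.60. In limma's fit to all 12 libraries 5382 genes passed an adjusted p of 0.05, or 45.4% of those tested. They were 4085 higher (34.4%) and 1297 lower (10.9%) in the α-labelled libraries.

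The calls depended on scaling and on which libraries set the spread. The fit pools the spread of all 6 groups. The root mean square SD between replicates was 0.484 over these groups and 0.987 in the α-labelled pair. The SEs and adjusted p printed here therefore rest, on average, on a smaller spread than that of the α-labelled pair. After median-ratio scaling between libraries 1740 genes were higher (14.7%) and 2449 lower (20.6%), so the share of calls that were higher was 41.5% in place of 75.9%. Fitted to the 4 treated knockout libraries alone, 337 were higher (2.84%) and 45 lower (0.379%), and 380 of these were also called with all 12. Some large differences lost their calls there too, among them Hnrnpk (5.09, adjusted p 0.0839) and Cdh11 (3.48, adjusted p 0.127). Without replicate 2 of the β-labelled pair 2187 genes were called. A stricter set was chosen after the values were seen. It required the call and its direction to hold after median-ratio scaling and without each of the 4 treated knockout libraries in turn. Leaving out an α-labelled library also takes the spread of that pair out of the fit. Of the genes in the set, 335 higher and 44 lower ones passed in the fit to the 4 libraries alone. The set is therefore no check on whether the α-labelled replicates match. It kept 1878 genes, 34.9% of the calls, with 1321 higher (11.1%) and 557 lower (4.70%), and these are called kept below.

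The β-labelled libraries lay outside the range of the untreated knockout libraries for most tested genes, and not only for called ones. Library totals in FPKM ranged from 447554 to 472935 for those 4 untreated libraries, against 1076956 to 1461416 for the 4 treated knockouts. The 10 highest lines made up 7.77% to 8.03% of these totals, against 13.7% to 16.4%. The part of this offset between whole libraries in the counts that follow was not tested. For 3588 of the 4085 genes called higher, both β-labelled libraries lay below all 4 untreated knockout libraries (6815 of all 11860 tested genes did so). Both α-labelled libraries lay above all 4 for 1020 of the 4085, a share like that of all tested genes (2947 of 11860). For 1235 of the 4085 both α-labelled libraries also lay below all 4 (3092 of all tested genes). Among the 1297 genes called lower, both β-labelled libraries lay above all 4 untreated knockout libraries for 1193, against 2875 of the 11860 tested genes. Both α-labelled libraries lay above both β-labelled ones for 5833 genes (49.2% of those tested) and below both for 1922 (16.2%). Both α-labelled libraries lay more than 2 above every β-labelled library for 403 genes and more than 2 below for 77.

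**Figure D1:**
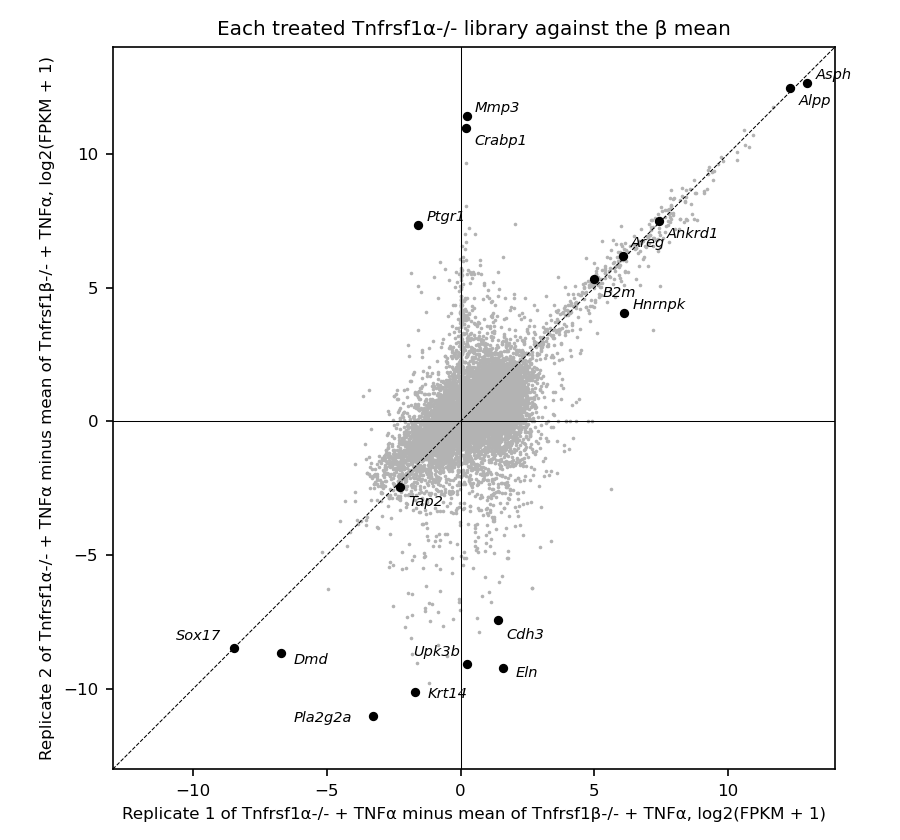
Each point is 1 of the 11860 tested genes; the x axis is replicate 1 and the y axis replicate 2 of the α-labelled libraries, each minus the mean of the β-labelled libraries, in log2(FPKM + 1), and the dashed line marks equal values. Genes such as Asph, Alpp and Ankrd1 lie on the line far from the origin, while Mmp3, Crabp1, Eln and Upk3b lie near an axis because only 1 of the 2 libraries is far from the β-labelled mean.

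Promoter motif matches are given for 5 members of the YAP target and cell division lists, to be set beside the values that follow. Each window holds the 250 bases upstream of the annotated start in the RefSeq rat assembly GRCr8, read 5′ to 3′ on the gene's strand. The separate lines pair each symbol used here with its RefSeq symbol. The first pair belongs to YAP target genes, and the motif is GGAATG or its reverse complement CATTCC, the core bound by TEAD factors. Ctgf (Ccn2 in RefSeq), a secreted matrix protein, lies at chr1:22624615-22624864 on the minus strand with 3 matches, and Amotl2, a scaffold that binds YAP, at chr8:112182376-112182625 on the plus strand with 1.
Ctgf: Ccn2
Amotl2: Amotl2
Of 33469 RefSeq promoter windows of this length 12.1% held such a match. Among the tested YAP and TAZ target genes 15 of 24 had a promoter in the table and 6 held a match; of the 7 called higher among them 2 did.

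The other 3 belong to cell division genes, and the motif is TTTGAA or its reverse complement TTCAAA, the cell cycle genes homology region (CHR). Cdc20, the activator of the anaphase-promoting complex, lies at chr5:137255800-137256049 on the minus strand with 1 match. Top2a, which untangles DNA before division, lies at chr10:84473094-84473343 on the minus strand with 1 match. Cdk1, the kinase that drives mitosis, lies at chr20:19265043-19265292 on the plus strand with 2 matches, and it is shown because it moved opposite to the other pair.
Cdc20: Cdc20
Top2a: Top2a
Cdk1: Cdk1
A CHR match stood in 16.2% of all windows, in 6 of the 22 cell division genes with a promoter and in 4 of the 14 of these called higher. Another 2 motifs were searched. The sterol-element string TCACNCCAC was in 0 of 17 promoters of cholesterol and fatty acid synthesis genes and in 0.974% of all windows. The NF-kB motif was searched as 1 narrow string, so sites that fit only its wider consensus were not counted. That string was in 2 of 13 chemokine and cytokine promoters, in none of the 3 called higher among them, and in 0.314% of all windows. All 4 were searched on both strands, none contains another, and a match is a description of the sequence and not of binding.

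The 15 largest positive differences of called genes whose libraries did not overlap included genes of membrane, cytoskeletal and secreted proteins. Asph, which hydroxylates EGF-like domains, was at 14.24 and 13.94 in the α-labelled libraries, against 1.45 and 1.11 in the β-labelled libraries, a difference of 12.81 (SE 0.21, adjusted p 1.02e-08). Alpp, an alkaline phosphatase, was at 12.32 and 12.47 in the α-labelled libraries and was listed at 0 in both β-labelled ones (adjusted p 3.54e-09). Nars2, the mitochondrial asparaginyl-tRNA synthetase, was at 12.85 and 12.90 in the α-labelled libraries, against 1.13 and 1.17 in the β-labelled ones. In these 3 genes the replicates of each label lay close together and the groups did not overlap.

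Plcb4, a phospholipase C, Tmem54, Abba1, Cdcp1, a transmembrane substrate of Src kinases, Fscn1, which bundles actin, and Apba2, an adaptor of the amyloid precursor protein, were also listed at 0 in both β-labelled libraries and ranged from 9.29 to 10.95 in the α-labelled ones. A listed 0 can be a failed estimate, and no fold is given against it. The adhesion protein Mcam was at 10.34 and 10.25 in the α-labelled libraries, against 0.42 and 0.62 in the β-labelled ones. For Amigo2, another adhesion protein, the values were 9.69 and 9.63 in the α-labelled libraries, against 0.43 and 0.18. Atp1b1, a subunit of the sodium pump, was at 11.96 and 11.86 in the α-labelled libraries, against 3.12 and 1.88. Tubb2a, a beta-tubulin, was at 9.91 and 10.06, against 0.32 and 0. The groups did not overlap for any of these.

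For 2 of the 15 the β-labelled replicates disagreed. Stc1, a secreted glycoprotein hormone, was at 11.26 and 10.97 in the α-labelled libraries, against 1.83 and 0 in the β-labelled ones (difference 10.20, SE 1.01, adjusted p 0.000157). Flrt2, a membrane ligand in cell guidance, was at 11.52 and 10.95, against 2.39 and 0. All 15 were kept, all 15 also passed in the fit to the 4 libraries alone, and in all 15 both α-labelled libraries lay above the 4 untreated knockout libraries. For 14 of the 15 the mean of TNFα-treated wild type lay nearer the α-labelled mean, and for all 15 the mean of untreated wild type lay nearer the β-labelled mean.

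**Figure D2:**
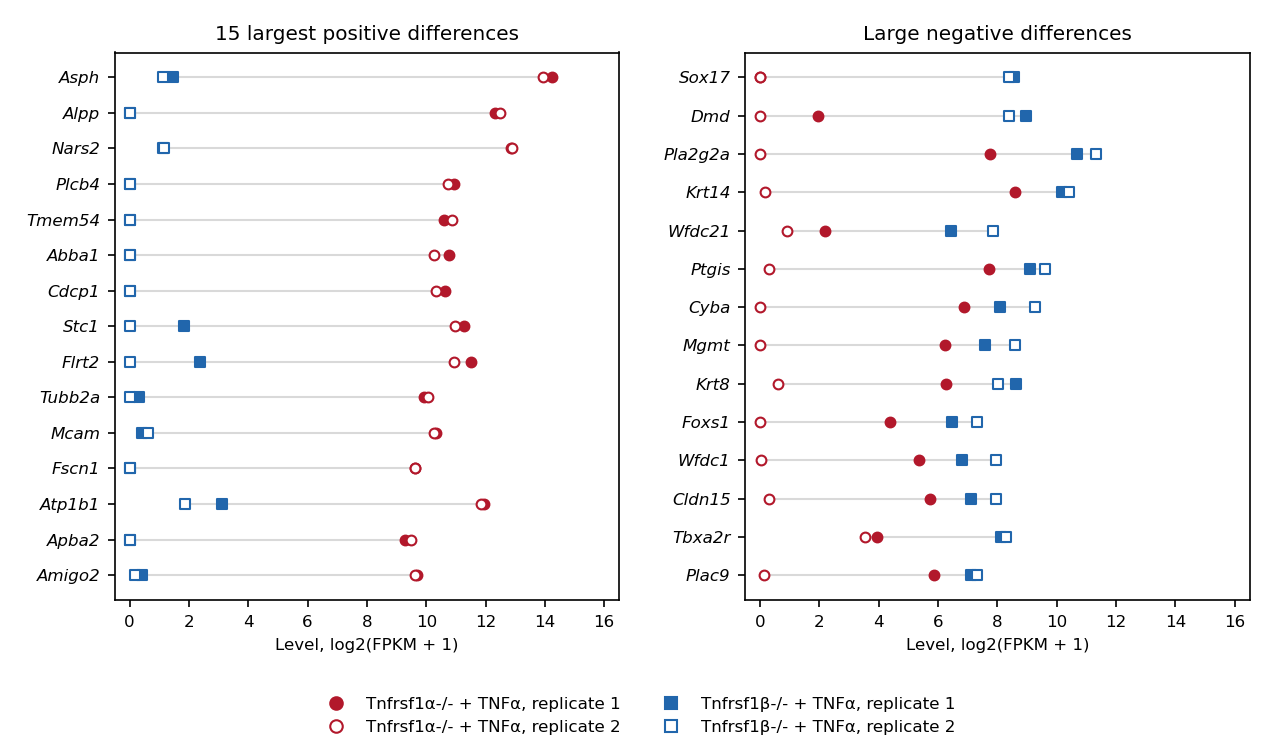
Levels in log2(FPKM + 1) of the 15 genes with the largest positive (left) and 14 of the 15 with the largest negative (right) differences among called genes whose libraries do not overlap; circles are the α-labelled and squares the β-labelled libraries, filled for replicate 1 and open for replicate 2. On the left the 2 circles of a gene lie together, from 9.29 to 14.24, while on the right 10 genes have replicate 2 of the α-labelled pair at or below 0.62 and replicate 1 between 4.37 and 8.61.

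Among the 15 largest negative differences of called genes whose libraries did not overlap, 5 were kept. Sox17, a transcription factor of endoderm and endothelium, was listed at 0 in both α-labelled libraries and was at 8.55 and 8.39 in the β-labelled ones (adjusted p 2.53e-07). Tbxa2r, the thromboxane receptor, was at 3.95 and 3.55, against 8.12 and 8.29 (difference -4.45, SE 0.49, adjusted p 0.000325). Dmd, which encodes dystrophin, was at 1.96 and 0, against 8.95 and 8.40, and Wfdc21 was at 2.18 and 0.90, against 6.45 and 7.84. Except for Wfdc21 (adjusted p 0.0566), these also passed in the fit to the 4 libraries alone.

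The other 10 rested on replicate 2 of the α-labelled pair. They were the keratins Krt14 and Krt8, Pla2g2a (a secreted phospholipase), Ptgis (prostacyclin synthase), Cyba (a subunit of the NADPH oxidase), Mgmt (which repairs alkylated guanine), Foxs1, Wfdc1, Cldn15 (a claudin) and Plac9. Krt14 was at 8.61 and 0.17 in the α-labelled libraries, against 10.17 and 10.42 in the β-labelled ones (difference -5.90, SE 2.05, adjusted p 0.0445). Krt8 was at 6.26 and 0.62, against 8.62 and 8.02. All 10 had adjusted p between 0.173 and 0.271 in the fit to the 4 libraries alone, which ended their calls.

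The YAP and TAZ target genes had the largest share of kept higher members among the lists with at least 10 tested genes. Of 24 tested members of 28, 12 were called higher and none lower, 11 were kept, and 8 passed in the fit to the 4 libraries alone. The median difference was 2.33, or 1.73 above that of all genes, and after median-ratio scaling 11 were higher and none lower. Ankrd1, a nuclear cofactor widely read as a YAP reporter and named here after its values were seen, was at 13.37 and 13.45 in the α-labelled libraries, against 5.81 and 6.10 in the β-labelled ones, a difference of 7.46 (SE 0.43, adjusted p 3.66e-06). Areg, an EGF receptor ligand, was at 11.57 and 11.70, against 5.56 and 5.44 (difference 6.13, SE 0.16, adjusted p 3.87e-08). Axl, a receptor tyrosine kinase, was at 12.13 and 11.97, against 6.71 and 6.41, and Amotl2 was at 10.68 and 10.63, against 5.43 and 5.13. Nt5e, which makes adenosine from AMP, was at 11.79 and 11.81, against 8.65 and 8.73. Ctgf, whose promoter matches are given above, was also chosen after its values were seen. It was at 10.27 and 10.48, against 7.67 and 6.96 (difference 3.06, SE 0.27, adjusted p 8.07e-05). In each of these 6 the replicates of a label lay close and the groups did not overlap.

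Other textbook targets of the same list did not pass. Cyr61 is a matrix signalling protein chosen after its values were seen. It was at 7.19 and 3.43 in the α-labelled libraries and listed at 0 in both β-labelled ones (adjusted p 0.0688). In the untreated wild-type libraries, whose spread also enters its SE of 2.12, Cyr61 was listed at 0 and 7.85. YAP itself was not among the large differences: Yap1 was at 5.80 and 5.61 in the α-labelled libraries, against 4.38 and 3.58 in the β-labelled ones (difference 1.73, SE 0.65, adjusted p 0.0585). TAZ, encoded by Wwtr1, was at 5 and 4.78, against 4.33 and 3.90 (difference 0.78, SE 0.23, adjusted p 0.0256), and after median-ratio scaling its difference was 0.04 (adjusted p 0.886).

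Of the 20 tested YAP, TAZ, TEAD and Hippo components 13 were called higher and 1 lower, with 4 and 1 kept; after median-ratio scaling 7 were higher and 2 lower. Frmd6, an upstream activator of the Hippo kinases, was at 9.62 and 9.75 in the α-labelled libraries, against 6.10 and 6.41 in the β-labelled ones (difference 3.43, SE 0.24, adjusted p 1.73e-05). Amot, a membrane scaffold that retains YAP, was at 1.97 and 2.23, against 0.58 and 0.87, and Sav1, the scaffold of the Hippo kinases, was at 4.30 and 4.87, against 3.44 and 2.91. The DNA-binding partner Tead2 went the other way, at 3.34 and 2.74, against 4.66 and 5.37 (difference -1.97, SE 0.30, adjusted p 0.00177). Of the components Frmd6 alone passed in the fit to the 4 libraries.

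Cell division genes split. Of 27 tested members of 28, 17 were called higher and 4 lower, 12 and 4 were kept, 10 passed in the fit to the 4 libraries (all higher), and 12 were higher and 5 lower after median-ratio scaling. Tyms, which makes thymidylate, was at 10.74 and 10.96 in the α-labelled libraries, against 4.62 and 4.50 in the β-labelled ones (difference 6.29, SE 0.17, adjusted p 4.71e-08). Cyclin B, encoded by Ccnb1, was at 10.86 and 10.84, against 6.14 and 5.58, and the mitotic kinase Aurkb was at 9.10 and 9.24, against 4.94 and 4.65. Cyclin D, encoded by Ccnd1, was already high in the β-labelled libraries, with 14 and 14.01 in the α-labelled ones, against 10.65 and 10.75. Cdc20 was at 10.83 and 11.01, against 6.39 and 6.01 (adjusted p 1.61e-06), and Top2a at 12.47 and 11.93, against 10.36 and 10.07 (adjusted p 0.00106).

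The 4 lower members, named after their values were seen, were Cdk1, the kinesin Kif20a and the nucleotide enzymes Rrm1 and Tk1. Cdk1 was at 7.29 and 7.52 in the α-labelled libraries, against 8.63 and 8.67 in the β-labelled ones (difference -1.24, SE 0.17, adjusted p 0.00101). Rrm1, a subunit of ribonucleotide reductase, was at 10.90 and 10.77, against 13.01 and 12.49 (difference -1.91, SE 0.23). Cyclin B and its kinase partner Cdk1 thus differed in opposite directions between the same libraries. None of the 4 passed in the fit to the 4 libraries alone.

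Among lipid genes 3 enzymes and regulators of sterol synthesis stood out. In the cholesterol and fatty acid synthesis list 10 of 26 tested members were called higher, near the 34.4% of all genes, and none lower. Of these 3 were kept, and after median-ratio scaling 4 were higher and 2 lower. Fdps, farnesyl diphosphate synthase, was at 12.51 and 13.05 in the α-labelled libraries, against 6.25 and 6.70 in the β-labelled ones (difference 6.31, SE 0.27, adjusted p 5.43e-07). Mvd, the mevalonate decarboxylase upstream of it, was at 11.56 and 11.61, against 4.62 and 5.31, and Insig1, which retains the sterol sensor in the endoplasmic reticulum, was at 9.92 and 9.30, against 2.72 and 2.76. The list as a whole followed replicate 1 of the α-labelled pair. Its median difference from the β-labelled mean was 2.2 in replicate 1 and 0.04 in replicate 2. Over all tested genes these medians were 0.66 and 0.45.

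Immediate early genes and the feedback regulators of MAP kinases did not move as 1 group. Of 26 tested members of 30, 11 were called higher and 3 lower, with 5 and 2 kept; after median-ratio scaling 6 were higher and 3 lower. Junb, an AP-1 factor, was at 10.47 and 10.68 in the α-labelled libraries, against 5.42 and 5.93 in the β-labelled ones (difference 4.90, SE 0.23, adjusted p 1.01e-06). Dusp1, which inactivates p38 and JNK, was at 9.98 and 10.17, against 5.14 and 5.08, and the Sprouty feedback genes Spry4 and Spry2 were at 10.43 and 10.46, against 7.12 and 6.46, and at 5.19 and 4.70, against 2.55 and 2.80. The 3 called lower, named after their values were seen, were Jund, Egr1 and Klf2, of which Jund and Egr1 were kept. Egr1, a serum-responsive zinc finger factor, was at 7.40 and 6.66 in the α-labelled libraries, against 8.26 and 8.13 (adjusted p 0.00683).

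Genes of the TNF receptor complexes showed small differences, mostly towards higher values. Of 25 tested members 15 were called higher and none lower, with a median difference of 1.34, or 0.74 above that of all genes; 6 were kept, and none passed in the fit to the 4 libraries. After median-ratio scaling 9 were higher and 3 lower. Cflar, which encodes the caspase-8 inhibitor c-FLIP, was at 11.59 and 11.18 in the α-labelled libraries, against 9.30 and 9.49 in the β-labelled ones (difference 1.99, SE 0.18, adjusted p 0.000101; 0.0863 in the fit to the 4 libraries). Ripk1, the kinase of the TNFR1 complex, was at 3.62 and 2.97, against 1.73 and 1.29, Birc2, a ubiquitin ligase of that complex, at 3.33 and 3.09, against 2.01 and 1.73, and Mlkl, the executor of necroptosis, at 3.24 and 2.90, against 1.68 and 1.22. For Tnfrsf1a itself the difference was 1.02 (SE 0.19, adjusted p 0.00388), and 0.27 (adjusted p 0.295) after median-ratio scaling.

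NF-kB genes were close to the background. Of 22 tested subunits, feedback inhibitors and adhesion targets 8 were called higher and 3 lower, a share of higher calls near the 34.4% of all genes, and after median-ratio scaling 3 were higher and 4 lower. Ptgs2, the inducible cyclooxygenase, was at 4.89 and 5.69 in the α-labelled libraries, against 3.16 and 2.55 in the β-labelled ones (difference 2.43, SE 0.38, adjusted p 0.00208). Bcl3, an atypical IkB protein, was at 1.88 and 1.28, against 3.87 and 4.50 (difference -2.60, SE 0.30, adjusted p 0.000438). These 2 were kept; Nfkb2, a subunit, at 4.25 and 5.20, against 3.01 and 3.19, and the adhesion receptor Icam1, at 7.60 and 5.91, against 4.57 and 4.60, were called but not kept. None of the list passed in the fit to the 4 libraries.

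Among 19 tested chemokines and cytokines 4 were called higher, below the 34.4% of all genes, and 2 lower, near the 10.9% of all genes. Of these 2 were kept, and after median-ratio scaling 2 were higher and 4 lower. Ccl20, which attracts CCR6-bearing lymphocytes, was at 7.87 and 8.11 in the α-labelled libraries and listed at 0 in both β-labelled ones (adjusted p 0.000133). Cxcl2, a neutrophil chemoattractant, was at 2.45 and 3.83, against 0.27 and 0.59 (difference 2.71, SE 0.40, adjusted p 0.00148). Csf1, the macrophage growth factor, was at 6.41 and 8.04, against 5.48 and 5.38, and Il33, an alarmin, at 0.96 and 0.74, against 1.32 and 2.05; neither was kept.

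The interferon and antigen processing list held the largest share of kept lower members among the lists with at least 10 tested genes, 5 of 24, against 4.70% of all genes. In all, 7 were called lower and 4 higher, and after median-ratio scaling 8 were lower and 2 higher. The list median against the β-labelled mean was 0.63 in replicate 1 and -0.93 in replicate 2 of the α-labelled pair. Over all tested genes these medians were 0.66 and 0.45. The list as a whole thus lay near the background in replicate 1 and below it in replicate 2. Tap2, a subunit of the peptide transporter, was at 9.84 and 9.64 in the α-labelled libraries, against 12.06 and 12.16 in the β-labelled ones (difference -2.37, SE 0.15, adjusted p 7.92e-06). Isg15, a ubiquitin-like modifier, was at 6.44 and 5.92, against 8.18 and 8.44, and Ifi27 at 9 and 9.63, against 10.62 and 10.98. B2m, the light chain of class I molecules that Tap2 helps to load, went the other way, at 15.32 and 15.67, against 10.61 and 10.05 (difference 5.16, SE 0.24, adjusted p 9.67e-07). B2m passed in the fit to the 4 libraries and Tap2 just missed (adjusted p 0.0558).

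**Figure D3:**
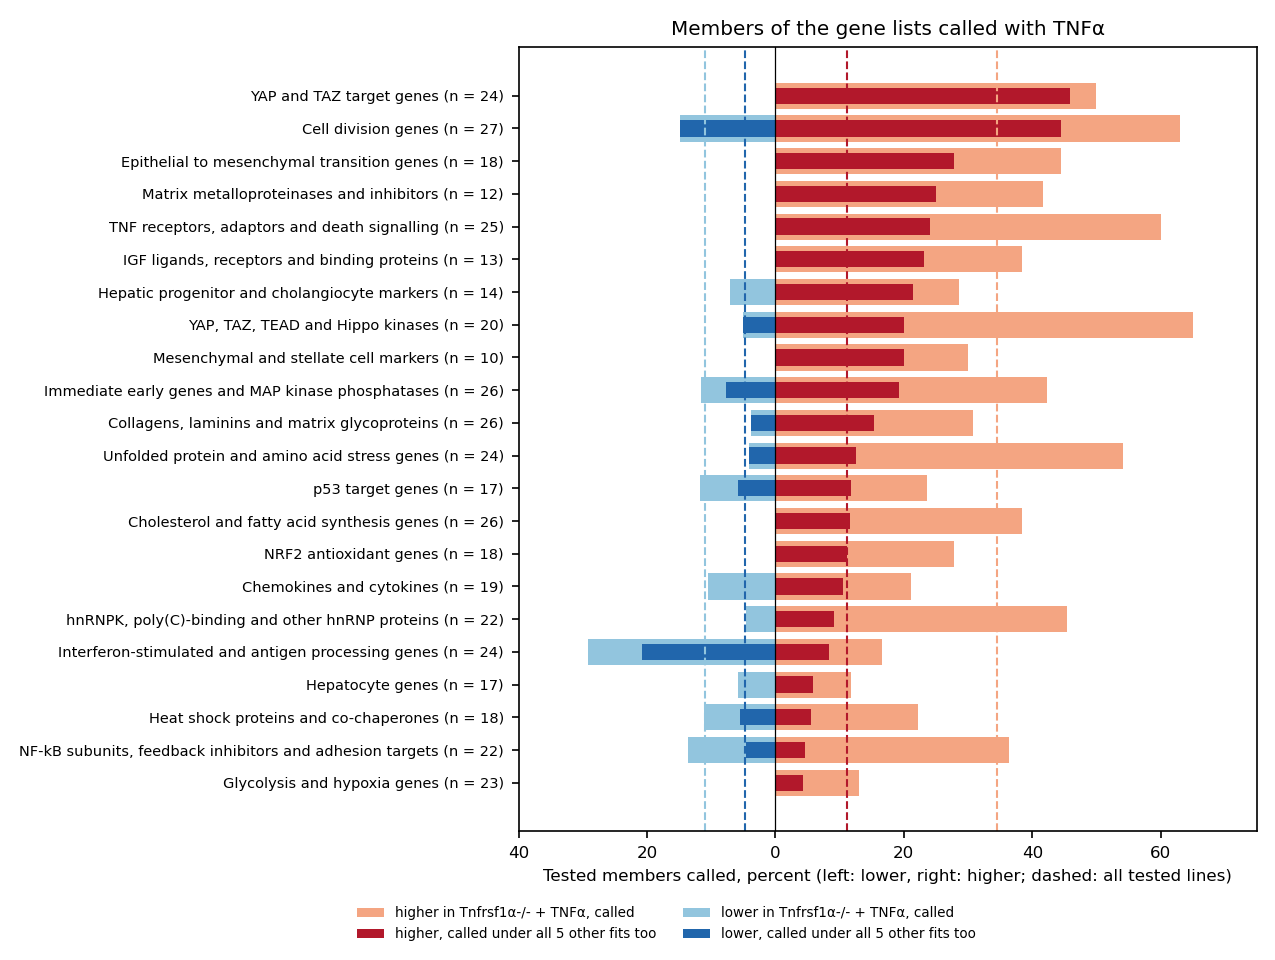
Share of tested members of each list with at least 10 tested genes that were called higher (right) or lower (left) in the α-labelled libraries; pale bars are all calls, dark bars the kept ones, and dashed lines the same shares over all tested genes (34.4% and 10.9%, kept 11.1% and 4.70%). The YAP and TAZ target genes (11 of 24) and cell division genes (12 of 27) have the longest dark bars to the right, and the interferon list (5 of 24) the longest to the left.

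Secreted proteins that shape the matrix were among the large increases, while the fibrillar collagens were not. Of 12 tested metalloproteinases and inhibitors 5 were called higher and none lower, 3 were kept, and after median-ratio scaling 4 were higher and 1 lower. Adamts1, a secreted protease, was at 5.77 and 5.05 in the α-labelled libraries, against 0.34 and 0.02 in the β-labelled ones (difference 5.23, SE 0.36, adjusted p 1.47e-05). Serpine2, a protease inhibitor, was at 10.20 and 10 in the α-labelled libraries, against 8.03 and 7.92. Mmp19 was at 3.70 and 6.64, against 2.20 and 1.85, and was not kept.

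Of 26 tested collagens, laminins and matrix glycoproteins 8 were called higher, slightly below the 34.4% of all genes, and 1 lower. Of these 4 and 1 were kept, and after median-ratio scaling 6 were higher and 1 lower. Thbs1, thrombospondin, was at 13.82 and 13.23 in the α-labelled libraries, against 8.12 and 7.64 in the β-labelled ones (difference 5.65, SE 0.27, adjusted p 1.02e-06). Col12a1, a fibril-associated collagen, was at 8.67 and 7.65, against 1.58 and 1.01, the basement membrane chain Col4a2 at 11.24 and 10.73, against 6.58 and 6.24, and the laminin chain Lama4 at 5.65 and 5.4, against 2.39 and 0. The single lower member, Col1a1, the main fibrillar collagen chain, was named after its values were seen and was at 7.19 and 6.14, against 8.53 and 8.23 (adjusted p 0.00698).

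Of 18 tested genes of epithelial to mesenchymal transition 8 were called higher and none lower, and 5 were kept; after median-ratio scaling 5 were higher and none lower. Cdh2, N-cadherin, was at 11.30 and 11.25 in the α-labelled libraries, against 8.23 and 8.28 in the β-labelled ones (difference 3.02, SE 0.18, adjusted p 5.06e-06). Zeb1, a repressor of epithelial genes, was at 10.54 and 10.48, against 6.87 and 5.91. Tgfb2, a TGF-beta ligand, was at 11.51 and 11.30, against 5.49 and 0, and Cdh11, a mesenchymal cadherin, at 5.55 and 5.16, against 2.81 and 0.95. E-cadherin, encoded by Cdh1, was higher too, at 7.26 and 5.57, against 2.96 and 3.26 (difference 3.30, SE 0.51, adjusted p 0.00192), so the epithelial and the mesenchymal cadherins differed in the same direction.

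Markers of the labelled cell type were present only in part. The progenitor and bile duct markers summed to 28100 and 37700 FPKM in the α-labelled libraries, against 13000 and 14700 in the β-labelled ones, most of it Krt7, a bile duct keratin, at 14.63 and 15.11, against 13.60 and 13.81. Of the 21 marker lines 10 and 6 were listed at 0 in the α-labelled libraries, against 13 and 13 in the β-labelled ones, and the fetal liver markers Afp and Epcam were at 0 in all 4. Of the 14 tested 4 were called higher, below the 34.4% of all genes, and 1 lower, with 3 kept. After median-ratio scaling 3 were higher and 1 lower. Foxm1, a driver of mitotic transcription, was at 10.63 and 10.48, against 3.95 and 3.29 (difference 6.94, SE 0.29, adjusted p 4.49e-07), and Sox9, a progenitor and bile duct factor, at 9.67 and 9.39, against 6.30 and 5.69 (adjusted p 2.15e-05).

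Hepatocyte genes summed to 1250 and 1230 FPKM in the α-labelled libraries, against 37.3 and 62.3 in the β-labelled ones, and nearly all of that was Ambp, the precursor of alpha-1-microglobulin, at 10.27 and 10.24, against 4.63 and 5.66 (adjusted p 5.23e-05). Albumin, transthyretin and Hnf4a were at 0.27 or lower in all 4 libraries. Of 17 tested members 2 were called higher, below the share of all genes, and 1 lower. Mesenchymal markers summed to 14500 and 16200 FPKM, against 8100 and 6440, and 3 of 10 tested were called higher and none lower, below the 34.4% of all genes, with a median difference of 0.16, or -0.45 relative to that of all genes. Fn1, fibronectin, was at 12.73 and 12.05 in the α-labelled libraries, against 8.84 and 8.80 in the β-labelled ones (difference 3.57, SE 0.24, adjusted p 1.11e-05), Dcn, decorin, at 7.56 and 7.29, against 5.23 and 3.80, and Vim, vimentin, at 10.63 and 10.92, against 10.23 and 8.93, which was not kept. Acta2, smooth muscle actin, was at 8.55 and 0.26 in the α-labelled libraries, against 9.25 and 8.83 in the β-labelled ones (difference -4.64, SE 2.02, adjusted p 0.0891). Endothelial markers summed to 77.5 and 2.20 FPKM in the α-labelled libraries, against 53.8 and 30.8. Macrophage and leukocyte markers summed to 51.0 and 28.2, against 31.3 and 29.0, and erythroid genes to 58.4 and 5.84, against 9.41 and 11.4. None of the 6 tested members of these last 3 lists was called. The part of cell makeup in the differences above was not tested.

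Hnrnpk, the gene in the series title, was higher but with discordant replicates. It was at 12.70 and 10.62 in the α-labelled libraries, against 6.80 and 6.34 in the β-labelled ones, a difference of 5.09 (SE 0.62, adjusted p 0.000584). The call was kept, and it did not pass in the fit to the 4 libraries alone (adjusted p 0.0839). The next largest difference in its family, named after its values were seen, was 2.31 for Hnrnph1. Of the 22 tested hnRNP and poly(C)-binding lines 10 were called higher and 1 lower, 2 of them kept, and after median-ratio scaling 2 were higher and 4 lower. Hnrnpul2 was at 6.64 and 5.89, against 4.98 and 4.30, and was kept. Its poly(C)-binding relatives Pcbp2, at 7.54 and 7.66, against 6.68 and 5.99, and Pcbp3, at 4.31 and 5, against 3.29 and 3.44, were called but not kept.

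Stress and metabolic lists gave a few strong genes beside many shallow ones. Of 24 tested unfolded protein and amino acid stress genes 13 were called higher and 1 lower, with 3 and 1 kept; after median-ratio scaling 5 were higher and 2 lower. Shmt2, the mitochondrial serine hydroxymethyltransferase, was at 12.98 and 13.39 in the α-labelled libraries, against 7.73 and 7.46 in the β-labelled ones (difference 5.59, SE 0.24, adjusted p 5.03e-07), and Phgdh, the first enzyme of serine synthesis, at 10.74 and 11.13, against 6.89 and 6.74. Hsp90b1, an endoplasmic reticulum chaperone, was at 14.25 and 13.85, against 12.56 and 12.01. Cebpb, a transcription factor of the acute phase and of amino acid stress, was lower, at 9.64 and 9.70, against 11.45 and 11.73 (difference -1.92, SE 0.27, adjusted p 0.00136).

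Of 23 tested glycolysis and hypoxia genes 3 were called higher and none lower, and after median-ratio scaling 2 were higher and 3 lower; Ndrg1 alone was kept. This stress-responsive gene was at 11.72 and 11.85 in the α-labelled libraries, against 5.54 and 3.64 in the β-labelled ones (difference 7.20, SE 0.52, adjusted p 1.90e-05). Of 18 tested heat shock lines 4 were called higher and 2 lower, and after median-ratio scaling the balance turned round to 1 higher and 4 lower. Hspe1, the mitochondrial co-chaperonin, was at 8.25 and 7.72, against 10.13 and 9.98 (adjusted p 0.000591), and Hspa4l at 2.09 and 2.76, against 0.32 and 0.45. Of 17 tested p53 targets 4 were called higher and 2 lower, and after median-ratio scaling the balance turned round to 2 higher and 6 lower. The shares called higher in the glycolysis, heat shock and p53 lists all lay below the 34.4% of all genes. Btg1, an antiproliferative gene, was at 5.72 and 8.46, against 3.71 and 3.70, and Phlda3, an inhibitor of AKT, at 6.98 and 7.61, against 8.63 and 9.23 (adjusted p 0.00206).

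Of 18 tested NRF2 antioxidant genes 5 were called higher, below the 34.4% of all genes, and none lower. After median-ratio scaling 2 were higher and 3 lower. The factor itself, Nfe2l2, was at 6.91 and 6.08 in the α-labelled libraries, against 4.74 and 4.11 in the β-labelled ones (difference 2.07, SE 0.31, adjusted p 0.00175). Of 13 tested IGF pathway genes 5 were called higher, near the share of all genes, and none lower, with 3 kept. Igf2bp2, an RNA-binding protein of growing tissue, was at 10.17 and 9.97, against 6.73 and 6.5 (difference 3.45, SE 0.17, adjusted p 1.13e-06), and the insulin receptor substrate Irs2 was at 2.36 and 2.1, against 0.68 and 0.38.

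Within the α-labelled pair, 764 genes lay more than 2 higher in replicate 1 and 467 more than 2 higher in replicate 2. The 5 furthest apart towards replicate 2 were Mmp3 and Mmp10, which degrade matrix, Crabp1, a retinoic acid carrier, and the prostaglandin enzymes Ptges and Ptgr1. Mmp3 was at 0.32 and 11.49 in the α-labelled libraries, against 0 and 0.17 in the β-labelled ones, and Crabp1 was at 0.58 and 11.34, against 0.64 and 0.13. Towards replicate 1 the most extreme named genes were Eln, elastin, Upk3b, a mesothelial uroplakin, and Cdh3, P-cadherin. Eln was at 11.31 and 0.49 in the α-labelled libraries, against 9.94 and 9.52 in the β-labelled ones, and Upk3b was at 9.66 and 0.32, against 9.22 and 9.59. For these 8 genes the adjusted p lay between 0.107 and 0.298, and the α-labelled replicates lie on different sides of, or at very different distances from, the β-labelled ones.

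**Figure D4:**
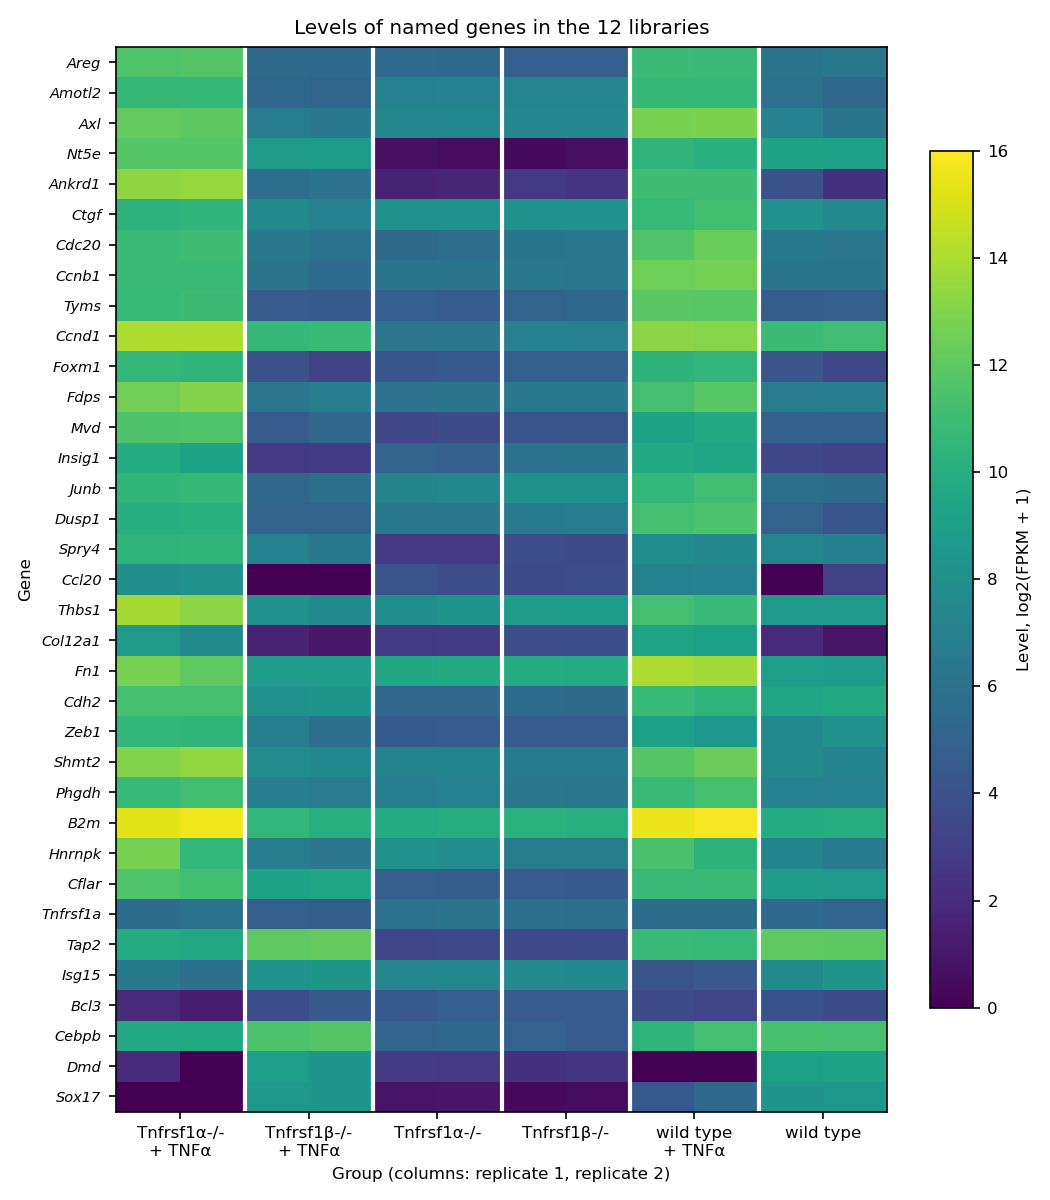
Levels in log2(FPKM + 1), by colour from 0 to 16, of named genes (rows) in the 12 libraries (columns, replicate 1 then replicate 2 within each group). In rows such as Areg, Ankrd1 and B2m, the α-labelled and the TNFα-treated wild-type libraries are bright while the β-labelled and untreated wild-type libraries are darker. Tap2 shows the reverse between the α-labelled and β-labelled libraries.

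For most kept genes untreated wild type lay nearer the β-labelled mean, and for a smaller majority treated wild type lay nearer the α-labelled mean. Of the 1321 kept higher genes the mean of untreated wild type lay nearer the β-labelled mean for 1275. The mean of TNFα-treated wild type lay nearer the α-labelled mean for 818 (61.9%). Of the 557 kept lower genes the counts were 535 and 332 (59.6%). Over all 11860 tested genes untreated wild type lay nearer the β-labelled mean for 9417 and treated wild type nearer the α-labelled mean for 6325 (53.3%). As whole libraries, neither α-labelled replicate was closest to treated wild type. Spearman's rho with treated wild type was 0.617 and 0.606 for replicate 1, and 0.696 and 0.695 for replicate 2. With untreated wild type it was 0.854 and 0.79 for replicate 1, and 0.779 and 0.748 for replicate 2. With the untreated knockouts it was 0.851 to 0.859 for replicate 1 and 0.611 to 0.635 for replicate 2.

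Some genes set the α-labelled libraries apart from treated wild type. Albumin, the main plasma protein (Alb), was at 0.27 and 0.20 in the α-labelled libraries, against 10.01 and 9.92 in treated wild type. Spry4 was at 10.43 and 10.46 in the α-labelled libraries, against 7.81 and 7.44 in treated wild type. Zeb1 was at 10.54 and 10.48 in the α-labelled libraries, against 9.17 and 8.55 in treated wild type. These differences from treated wild type are given as values, with no test.

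Without TNFα few genes passed between the labels. The untreated libraries labelled Tnfrsf1α-/- and Tnfrsf1β-/- differed in 4 genes (0.0337% of those tested; 450 at an unadjusted p under 0.05), among them LOC100911917, LOC108348298 and Med22, named here after their values were seen. The median difference over all tested genes was 0.01. The count rested on the spread taken from all 12 libraries: fitted to the 4 untreated knockout libraries alone, 1894 genes passed. A test of the difference with TNFα minus the difference without it passed for 2388 genes (20.1%), 1716 of them higher (14.5%) and 672 lower (5.67%). Among the YAP and TAZ target genes 11 of 24 passed that test upward, among cell division genes 14 of 27 upward and 3 downward, and among NF-kB genes 3 of 22 upward and 2 downward. Both differences use the same fit, and the count of the second test moved widely both ways. It was 6140 without replicate 2 and 4941 without replicate 1 of the α-labelled pair, 820 without replicate 2 of the β-labelled pair, 656 to 742 without any 1 untreated knockout library, 1331 without either treated wild-type library and 691 with array weights.

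**Figure D5:**
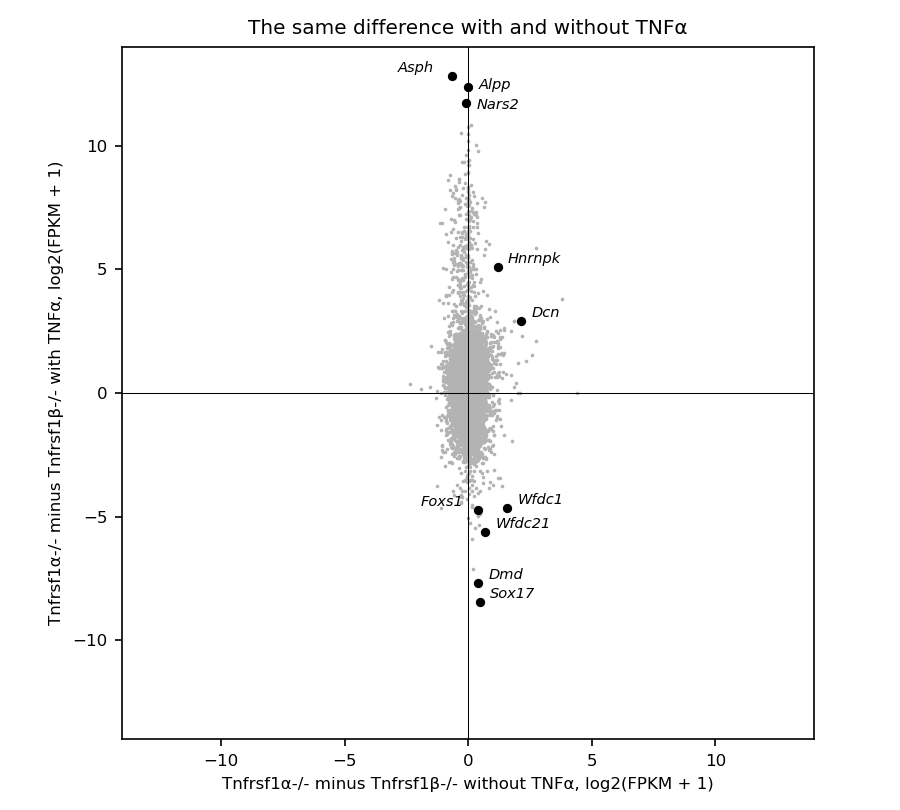
Each point is 1 of the 11860 tested genes; the x axis is the difference between the knockout labels without TNFα and the y axis the same difference with TNFα, both Tnfrsf1α-/- minus Tnfrsf1β-/- in log2(FPKM + 1). The points spread along the y axis, from Sox17 at -8.47 to Asph at 12.81, and little along the x axis; of the labelled genes Dcn lies furthest right.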

How the data were processed

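RNA-seq libraries of 12 samples were available as 1 deposited table of log2 values per gene line, which the authors made; the values were read as log2(FPKM + 1) because undoing that log gives library totals of 447554 to 2085916; the scale itself, the aligner and the genome build are not given in the sources used. Of 22730 lines, 346 without a symbol were left out and 1835 share a symbol with another line and were kept as separate lines. Differences were fitted with limma 3.58.1 in R 4.3.3 on the deposited log2(FPKM + 1) values (pseudocount 1), with a term for each of the 6 groups, an intensity trend and Benjamini-Hochberg adjustment over the 11860 lines with a mean of at least 1 FPKM; a call is an adjusted p under 0.05. A fold on this scale understates the change of low genes. The genes named were TNF receptor, YAP, TAZ and hnRNPK genes, the 15 highest and 15 lowest differences, up to 4 members a list by smallest p and the genes furthest apart between replicates; others are marked as chosen after their values were seen. Members, lists and tests were chosen with earlier results of these data known. Of the tested lines 10450 (88.1%) matched a RefSeq GRCr8 symbol, from which promoters were taken. Alternatives were other pseudocounts, filters, scalings, weights and fits, the replicate number as a block and leaving out each library. Some genes that the naming rule covers are not reported here.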

Additional observations from a re-analysis of the deposited data

Results flagged for a closer look

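The difference between the knockout labels was tested for being different with and without TNFα, and it passed for 2388 genes in limma's fit. The value for each gene is the Tnfrsf1α-/- minus Tnfrsf1β-/- difference with TNFα minus the same difference without it, in log2(FPKM + 1). The 5 largest positive values among genes that passed were 13.47 for Asph, 12.39 for Alpp, 11.80 for Nars2, 10.81 for Abba1 and 10.74 for Tmem54. The 5 largest negative ones were -8.94 for Sox17, -8.08 for Dmd, -6.30 for Wfdc21, -6.24 for Wfdc1 and -5.14 for Foxs1. For Wfdc1 and Foxs1 replicate 2 of the treated Tnfrsf1α-/- pair was at 0.05 and 0, and replicate 1 at 5.36 and 4.37.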

How the results depend on the processing

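With TNFα 5382 genes were called, 382 in the fit to the groups compared alone and 632 with array weights; leaving out 1 library gave 2187 to 7656, the lowest without replicate 2 of the treated Tnfrsf1β-/- pair. Without TNFα 4 were called, 47 with no filter, 1 at a mean FPKM of at least 5, 17 after quantile normalization, 1894 in the fit to the groups compared alone, 3640 with array weights and 1 with the filter over the 4 treated knockout libraries (an alternative chosen after seeing the data); leaving out 1 library gave 3 to 59. The test of the difference with minus without TNFα called 2388, 691 with array weights and 656 to 6140 with 1 library left out. The cause of these moves was not tested. Other settings kept each count within 1.5 times. Quantile normalization gave 1592 higher and 2191 lower genes with TNFα. Leaving out 1 library moved the difference between -9.23 and 1.58 for Eln, -7.42 and 1.40 for Cdh3 and -1.59 and 7.33 for Ptgr1; the sign changed without replicate 2 of the treated Tnfrsf1α-/- pair.

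The labels give each group the replicate numbers 1 and 2, with nothing to say that a number marks a shared animal or batch. Deviations of same-numbered libraries correlated at 0.149 to 0.236 among the 4 treated or wild-type groups (0.176 for the 2 groups compared) and at -0.169 to 0.244 in pairs that include an untreated knockout group. Not every pair was positive, so pairing was not established. With the replicate block 5837 genes were called with TNFα, 4 without it and 2991 for the difference. Read depth is unknown, which limits what can be said of low genes.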
